A study of Mus musculus with 4 samples.

Results

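The genes that carry the FGF4 signal from the cell surface to ERK were followed in RNA of mouse embryonic stem cells (ESCs) kept in serum or in 2i. They are Fgf4, Fgfr1, Fgfr2, Grb2, Sos1, Ptpn11, Map2k1, Map2k2 and Mapk3, chosen by name and matched to the deposited table by Ensembl identifier. Of these 9 genes 8 had a row in the table used, which holds 14533 genes, and all 8 passed the filter on low values that left 13005 genes to test. Fgfr2 is not analysed here. There were 2 libraries of serum ESCs and 2 of 2i ESCs, all labelled late G1-phase. Serum ESCs were grown in fetal calf serum with the cytokine LIF. 2i ESCs were grown in serum-free Ndiff 227 medium with LIF, the MEK inhibitor PD0325901 and the GSK3 inhibitor CHIR99021. Both groups had been adapted for over 20 days. The design text of the series names early G1-phase instead. The sample labels were followed here, and they name no cell line. The study calls the 2 replicates of each condition biological and does not say how they were separated. Each p-value sets the difference between the conditions against the spread between these libraries, and the tests borrow part of that spread from other genes.

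FGF4 is a growth factor that ESCs secrete themselves. Together with heparan sulfate on the cell surface it brings FGF receptors together, and the activated receptor recruits the adaptor GRB2 with the exchange factor SOS1 and the phosphatase SHP2, the product of Ptpn11. RAS, RAF, MEK and ERK are then activated in turn. In ESCs this cascade is known for priming the cells to leave self-renewal, and in the early embryo for directing cells to primitive endoderm. PD0325901 acts on the kinase activity of the MEK proteins, and the RNA levels of the genes of the cascade do not report that activity.

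The MEK genes Map2k1 and Map2k2 share a stretch of coding sequence that is longer than the 43-base reads, and it is shown because a read that lies within it fits both genes. It runs over 56 bases across exons 3 and 4 of 11 in each gene, on the mm9 build, and contains 14 words of read length.
Map2k1 (chr9:64052988-64060438, minus strand) and Map2k2 (chr10:80577870-80580904, plus strand): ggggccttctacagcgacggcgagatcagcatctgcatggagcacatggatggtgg
The coordinates include the intron between the exons. Outside such stretches the genes can be told apart, as 99.6% of the read-length words of Map2k1 and 99.5% of those of Map2k2 occur in no other annotated gene.

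The libraries held between 18939401 and 26570098 whole reads, of which protein-coding genes took 46.9% to 76.3% and the 10 genes with most reads 17.5% to 50.6%. The 8 genes had between 136 and 2620 reads in a library. All 12 ESC markers had a row, with summed levels of 77740 to 113746 normalized counts (reads divided by a size factor for each library). The summed levels in serum and in 2i libraries were 75.0 to 156 and 256 to 337 for the 5 primitive endoderm markers in the table of 8 listed, 239 to 503 and 222 to 2728 for 4 of 7 trophectoderm markers, 239 to 304 and 136 to 427 for 3 of 9 fibroblast markers, and 443 to 642 and 371 to 406 for 3 of 7 neural and mesoderm markers. The trophectoderm sum of 2728 was that of 2i replicate 1. Of it 2215 came from Elf5, which had 118 and 80.7 in the serum libraries and 85.4 in 2i replicate 2. Eomes (233) and Krt7 (248) were also highest in 2i replicate 1, whereas Gata3 had 32.2 there and 143 in serum replicate 1. The part of these markers in the values below was not tested.

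No difference between serum and 2i was detected for any of the 8 transcripts. Fgf4, the ligand, had lower values in both serum libraries than in both 2i libraries, and Ptpn11 had higher ones, while the values of Fgfr1, Grb2, Sos1, Map2k1, Map2k2 and Mapk3 overlapped between the conditions. With limma, a test fitted over all 13005 genes, 0 of the 8 genes were called, which asked for a 2-fold change and for an adjusted p-value (Benjamini-Hochberg) under 0.05. Over all genes this rule called 0% higher and 0.0154% lower in serum ESCs. At an unadjusted p-value under 0.05 the count was also 0 of 8, against 2.97% of all genes higher and 3% lower. With edgeR on whole reads 0 of 8 had an unadjusted p-value under 0.05, against 2.24% of all genes higher and 3.81% lower. With DESeq2 1 of 8, Ptpn11, had one, against 5.37% of all genes higher and 7.79% lower. A separation of both serum from both 2i values was seen for 1 of 8 genes in each direction, against 20.5% of all genes above and 19.4% below.

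**Figure D1:**
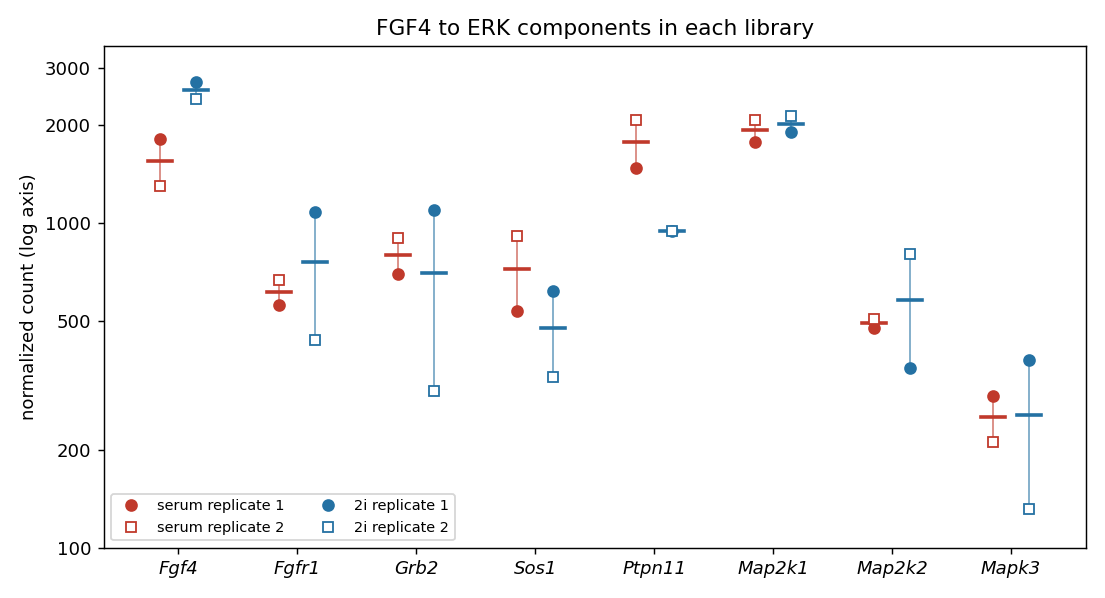
Normalized counts (log axis) of the 8 FGF4 to ERK components in each of the 4 libraries, with serum in red, 2i in blue, replicate 1 filled, replicate 2 open, and a bar at the mean of each condition. The conditions are apart for Fgf4 and Ptpn11, and the 2i replicates of Grb2 and Mapk3 lie 3.62-fold and 2.87-fold apart.

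Fgf4 (ENSMUSG00000050917, chromosome 7, 152047291 to 152051148, plus strand) encodes the ligand of the cascade. Serum replicate 1 had 1809 and serum replicate 2 had 1296 normalized counts, while 2i replicate 1 had 2720 and 2i replicate 2 had 2402. The groups did not overlap, and the means were 1552 ± 363 in serum and 2561 ± 225 in 2i (SD, n = 2), which is 1.65-fold higher in 2i ESCs. The log2 fold change, serum over 2i on the scale of log2(normalized count + 1), was -0.74 (SE 0.44, 95% interval -1.80 to 0.33; limma, adjusted p-value 0.753). This interval reaches below a 2-fold lower level in serum and does not reach a 2-fold higher one. All read-length words of Fgf4 were its own.

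Fgfr1 (ENSMUSG00000031565, chromosome 8, 26624126 to 26686186, plus strand) encodes the main FGF receptor of ESCs. It had 559 and 667 normalized counts in the serum libraries, against 1079 and 435 in the 2i libraries. Both serum values lay between the 2i values, which were 2.48-fold apart. The log2 fold change was -0.16 (SE 0.56, 95% interval -1.51 to 1.18; limma, adjusted p-value 0.954). Without 2i replicate 1 it was 0.49 and without 2i replicate 2 -0.82. Of the words of 43 bases in its transcripts, 91.4% occurred in no other gene. It shared exon bases with a further gene model of the same name (ENSMUSG00000091895) and, over 125 bases, with the antisense transcript Gm16159, neither of which has a row in the table used.

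The adaptor Grb2 (ENSMUSG00000059923, chromosome 11, 115505359 to 115569911, minus strand), which couples the receptor to SOS1, had the widest gap between replicates. Its values were 697 and 896 normalized counts in the serum libraries, against 1095 and 303 in the 2i libraries. In reads, 2i replicate 1 had 1055 (95% interval 992 to 1121) and 2i replicate 2 had 312 (278 to 349), where the exact Poisson intervals cover counting error alone. The log2 fold change was 0.46 (SE 0.67, 95% interval -1.16 to 2.08; limma, adjusted p-value 0.887). Leaving out 2i replicate 1 gave 1.38, and leaving out 2i replicate 2 gave -0.47. Of the words of Grb2 90.8% were its own, and the others were shared with sequences such as the pseudogenes Gm12791 and Gm13542.

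Sos1 (ENSMUSG00000024241, chromosome 17, 80793092 to 80879793, minus strand) encodes the exchange factor that loads RAS with GTP. It had 533 and 909 normalized counts in the serum libraries, against 615 and 335 in the 2i libraries. The lower serum value lay below the higher 2i value. The log2 fold change was 0.62 (SE 0.53, 95% interval -0.67 to 1.90; limma, adjusted p-value 0.783), and leaving out a single library put it between 0.18 (2i replicate 2) and 1.05 (2i replicate 1).

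Ptpn11 (ENSMUSG00000043733, chromosome 5, 121580542 to 121641406, minus strand) encodes the phosphatase SHP2, which is needed for full activation of RAS below receptor kinases. Its values were 1472 and 2073 normalized counts in the serum libraries, against 946 and 943 in the 2i libraries. The groups did not overlap, and the 2i replicates differed by a factor of 1.003. The means were 1773 ± 425 in serum and 944 ± 2.03 in 2i (SD, n = 2), or 1.88-fold higher in serum ESCs. The log2 fold change was 0.89 (SE 0.44, 95% interval -0.16 to 1.94; limma, adjusted p-value 0.753), the largest of the 8 genes.

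The MEK genes Map2k1 (ENSMUSG00000004936, chromosome 9, 64033577 to 64101438, minus strand) and Map2k2 (ENSMUSG00000035027, chromosome 10, 80568660 to 80587442, plus strand) encode MEK1 and MEK2, the kinases that PD0325901 inhibits. Map2k1 had 1778 and 2073 normalized counts in the serum libraries, against 1903 and 2127 in the 2i libraries. All 4 values lay close together, and the log2 fold change was -0.07 (SE 0.42, 95% interval -1.09 to 0.96; limma, adjusted p-value 0.977). Map2k2 had 475 and 505 in the serum libraries, against 357 and 800 in the 2i libraries. Its serum values lay between the 2i values, and the log2 fold change was -0.13 (SE 0.53, 95% interval -1.41 to 1.16; limma, adjusted p-value 0.966). Leaving out 2i replicate 1 gave -0.71 for Map2k2, and leaving out 2i replicate 2 gave 0.46. Map2k2 had its higher 2i value in replicate 2, whereas Fgfr1, Grb2, Sos1 and Mapk3 had the higher value in 2i replicate 1.

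Mapk3 (ENSMUSG00000063065, chromosome 7, 133903115 to 133909333, plus strand) encodes ERK1. It had the lowest mean count of the 8 genes, with 292 and 212 normalized counts in the serum libraries, against 379 and 132 in the 2i libraries. Both serum values again lay between the 2i values. The log2 fold change was 0.15 (SE 0.65, 95% interval -1.41 to 1.71; limma, adjusted p-value 0.966). Leaving out 2i replicate 1 gave 0.91, and leaving out 2i replicate 2 gave -0.60.

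**Figure D2:**
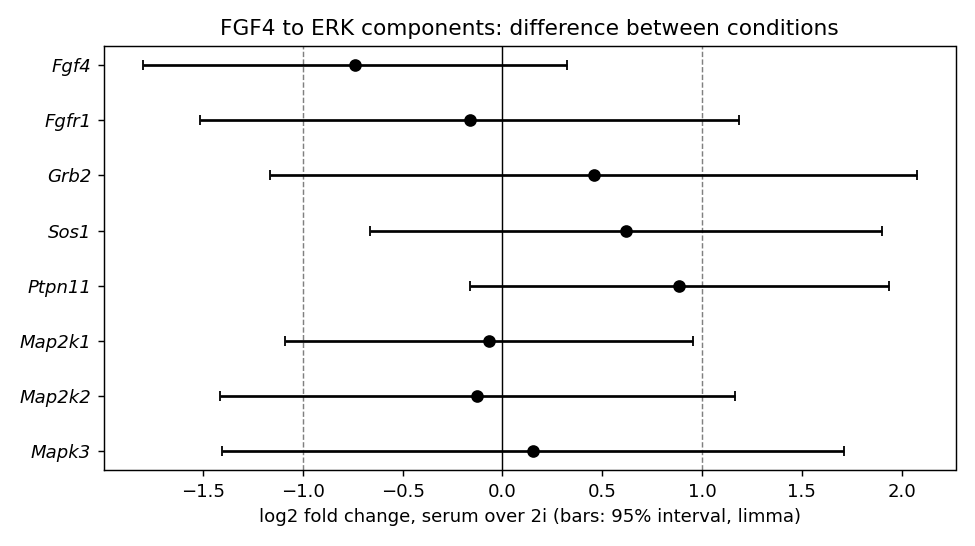
Log2 fold change, serum over 2i, of the 8 genes with 95% intervals from limma, and dashed lines at a 2-fold change in each direction. Each interval contains 0, and 0 of 8 lie within the dashed lines.

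The 2i replicates of several of these genes lay far apart. The median absolute log2 difference of the 8 genes was 1.02 between the 2i replicates, 0.41 between the serum replicates and 0.31 between the conditions. Over all genes tested these medians were 0.76, 0.53 and 0.55. The difference between conditions is one of means of 2 libraries, so the sizes are not directly comparable. For 6 of 8 genes the 2i replicates were further apart than the conditions, and for 4 of 8 the serum replicates were. The 2i difference was over 1 on the log2 scale for Fgfr1, Grb2, Map2k2 and Mapk3, whereas no gene of the 8 reached this between the serum replicates. The 95% intervals extended by 1.02 to 1.62 to each side, so 0 of 8 intervals stayed within a 2-fold change on both sides. A 2-fold higher level in serum lay outside the interval for Fgf4 and Map2k1, and a 2-fold lower one for Sos1 and Ptpn11.

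The median log2 fold change of the 8 genes was 0.04, against 0.005 over all genes tested, with 4 values above 0 and 4 below. Without 2i replicate 1 it was 0.69, and without 2i replicate 2 it was -0.23.

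**Figure D3:**
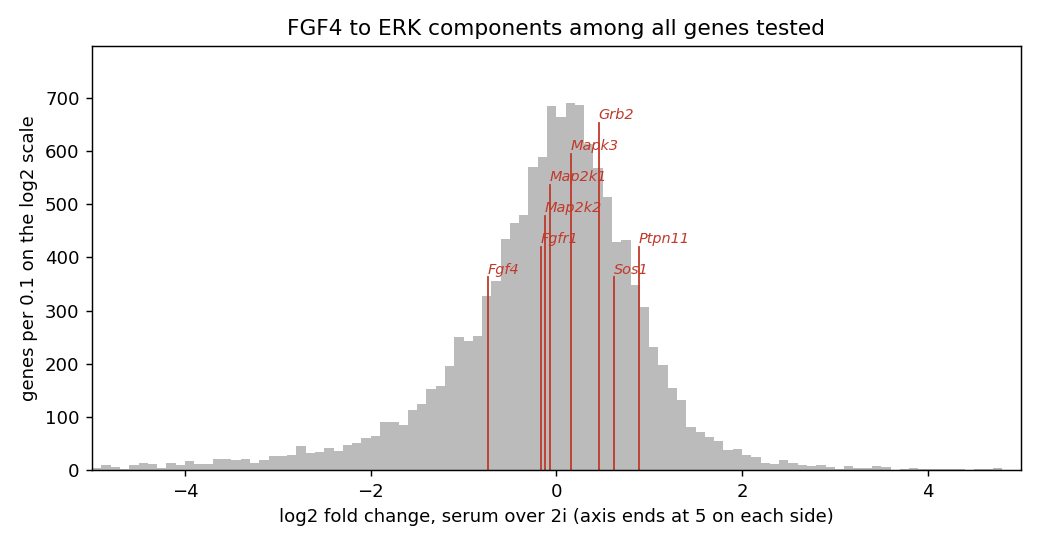
Histogram of the log2 fold change, serum over 2i, of the genes tested, in steps of 0.1, with the 8 FGF4 to ERK components marked by red lines whose height has no meaning. The axis leaves out 83 genes beyond 5 in either direction, and the 8 genes lie between -0.74 and 0.89.

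Levels of different genes were compared as normalized counts per kilobase of the longest annotated transcript. Map2k1 and Fgf4 held the first 2 places in every library and Sos1 the last. The mean level over the 4 libraries was 809 per kilobase for Map2k1 (range 730 to 873), 679 for Fgf4 (428 to 898), 276 for Grb2 (112 to 404), 222 for Map2k2 (148 to 333), 183 for Ptpn11 (127 to 279), 141 for Mapk3 (73.3 to 211), 137 for Fgfr1 (87.1 to 216) and 67.0 for Sos1 (37.5 to 102). In this order the ranges of Fgf4 and Grb2 did not overlap, and those of the other 6 neighbouring pairs did. With the mean length over transcripts, Map2k1 stood apart from Fgf4, with 1558 per kilobase in its lowest library against 898 in the highest library of Fgf4, and Fgf4 then overlapped with Map2k2.

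Ratios of related genes within a library do not depend on how libraries were scaled, and 9 such ratios of levels per length of the longest transcript were computed, with no test, of which 4 are reported here. Serum and 2i libraries were apart for 2 of the 9, and both are among the 4. Of all single genes tested, 20.5% had both serum values above both 2i values and 19.4% below. Such a share over other ratios was not computed. Sos1 over Sos2, the other SOS gene, was 2.94 and 3.11 in the serum libraries, against 1.61 and 1.36 in the 2i libraries. The normalized counts of Sos2 were 114 and 184 in the serum libraries, against 240 and 155 in the 2i libraries, so that neither gene separated the conditions alone. Fgfr1 over Fgfr3 was 5.84 and 5.28 in the serum libraries, against 11.1 and 19.0 in the 2i libraries. Fgfr3, a further FGF receptor gene, had 81.0 and 107 normalized counts in the serum libraries, against 82.0 and 19.4 in the 2i libraries.

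Fgfr1 had the highest level per length of the FGF receptor genes with a row in every library. It held 77.1% and 81.8% of the summed level of Fgfr1, Fgfr3 and Fgfr4 in serum and 84.5% and 92.6% in 2i. This sum leaves out Fgfrl1, a further receptor gene, so the shares are not those of all receptor genes with a row. Fgfrl1 had 69.8 per kilobase in 2i replicate 2, against 87.1 for Fgfr1, and at most 32.1 in the other libraries. The shares also rest on low values, as Fgfr4 did not pass the filter and had 7.76 normalized counts in 2i replicate 2. Map2k1 over Map2k2 was 3.69 and 4.05 in the serum libraries, against 5.26 and 2.62 in the 2i libraries, so Map2k1 was the higher MEK transcript in every library. This ratio overlapped between the conditions.

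**Figure D4:**
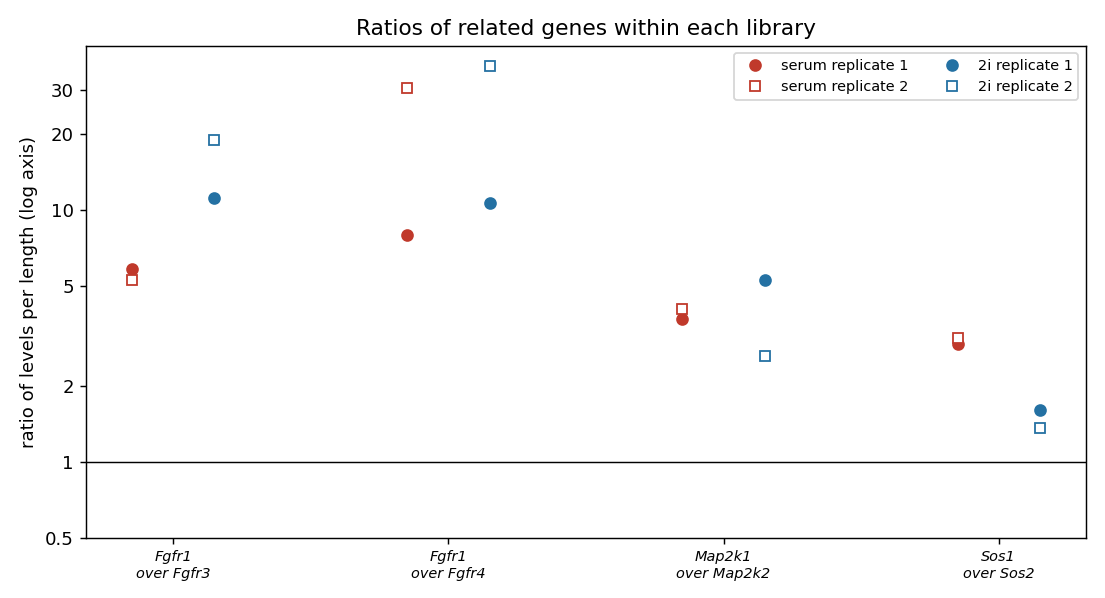
Ratios of levels per length of the longest transcript (log axis) in each library, with serum in red, 2i in blue, replicate 1 filled and replicate 2 open. Serum and 2i libraries are apart for Fgfr1 over Fgfr3 and Sos1 over Sos2, and overlap for Fgfr1 over Fgfr4 and Map2k1 over Map2k2.

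The other genes of the pathway, together with 9 kinase genes of other MAPK modules, were read from the same fit. Of these 97 genes listed by role, 88 had a row and 83 were tested, and 0 were called in either direction. The counts that follow include the 9 genes of other MAPK modules. Unadjusted p-values under 0.05 were found for 2 genes higher and 1 lower in serum ESCs, against the 2.97% and 3% of all genes. Their median log2 fold change was 0.16, with 52 above 0 and 31 below. Both serum values lay above both 2i values for 25 genes and below for 13, and 45 overlapped, beside the shares of 20.5% and 19.4% over all genes. In each role the gene with the fold change furthest above 0 and the one furthest below 0 are named, and no tested ligand lay below 0.

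At the cell surface, 3 of 10 further FGF ligands were tested and 0 passed. Fgf17, the highest by fold change, had 55.0 and 120 normalized counts in the serum libraries, against 21.8 and 21.3 in the 2i libraries. Among further receptors Fgfrl1, which lacks a kinase domain, had 48.0 and 79.7 in the serum libraries, against 85.1 and 185 in the 2i libraries. Its serum values lay below its 2i values. The heparan sulfate list, with enzymes that make the chains and the proteins that bear them, had the lowest median of the role lists at -0.38, with 9 of 15 below 0. The lowest was the core protein gene Sdc2, with 40.0 and 47.6 in the serum libraries, against 148 and 128 in the 2i libraries (log2 fold change -1.64 with an SE of 0.71, and 0.753 as adjusted p-value by limma). The highest was Ext1, a chain polymerase gene, at 0.40 (SE 0.46). Sdc4, a further core protein gene named after its values were seen, was the 1 gene lower in serum at an unadjusted p-value under 0.05. It had 1757 and 1137 in the serum libraries, against 3277 and 5070 in the 2i libraries (log2 fold change -1.53 with an SE of 0.49, and 0.753 as adjusted p-value by limma).

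Between receptor and RAF, 0 of 10 receptor adaptors and 0 of 5 exchange factors for RAS or related small GTPases passed. The same held for 0 of 6 RAS genes and 0 of 6 RAS GTPase activators. The ends of the adaptor list were the ubiquitin ligase gene Cbl at 1.01 (SE 0.65) and Frs3 at -0.998 (SE 0.66). Those of the exchange factors were Rasgrp2 at 0.88 (SE 0.52) and Rasgrp1 at -1.51 (SE 1.13), and the latter had 134 and 14.6 normalized counts in the serum libraries, against 111 and 150 in the 2i libraries. Without serum replicate 2 the value of Rasgrp1 was 0.052. Of the RAS genes Mras was highest at 0.72 (SE 0.53) and Rras lowest at -0.40 (SE 0.83). Nras had 2205 and 2440 normalized counts in the serum libraries, against 1772 and 1751 in the 2i libraries, and its serum values lay above its 2i values. Hras had 466 and 608 in the serum libraries, against 349 and 662 in the 2i libraries. Of the GTPase activators, which switch RAS off, Rasa2 was highest at 0.98 (SE 0.52) and Rasa3 lowest at -0.89 (SE 0.56).

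From RAF downwards, 0 of 3 RAF kinase genes, 0 of 13 scaffolds and regulators and 0 of 11 genes of ERK and its substrates were called. Braf was spread in 2i, with 1153 and 2134 in the serum libraries, against 1943 and 566 in the 2i libraries. Araf was more even across the libraries, with 682 and 744 in the serum libraries, against 745 and 877 in the 2i libraries. Its serum values lay below its 2i values, at a log2 fold change of -0.18 (SE 0.42). Among scaffolds and regulators Rap1b, a small GTPase gene, was highest at 1.18 (SE 0.53) and the phosphatase gene Ppp1ca lowest at -0.48 (SE 0.51). Elk4, a transcription factor gene, had the largest fold change of the ERK substrates. Its values were 468 and 416 in the serum libraries, against 170 and 78.6 in the 2i libraries (log2 fold change 1.92 with an SE of 0.57, and 0.753 as adjusted p-value by limma). Erf, which encodes a repressor that ERK exports from the nucleus and was named after its values were seen, had 2492 and 3015 in the serum libraries, against 1400 and 1043 in the 2i libraries (log2 fold change 1.18 with an SE of 0.44, and 0.753 as adjusted p-value by limma). These were the 2 genes higher in serum at an unadjusted p-value under 0.05, and Mknk1, a kinase gene, was lowest at -0.59 (SE 0.45). With 1 serum library left out, either one, neither Elk4 nor Erf had an unadjusted p-value under 0.05, and without serum replicate 2 or 2i replicate 2 Sdc4 had none either.

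**Figure D5:**
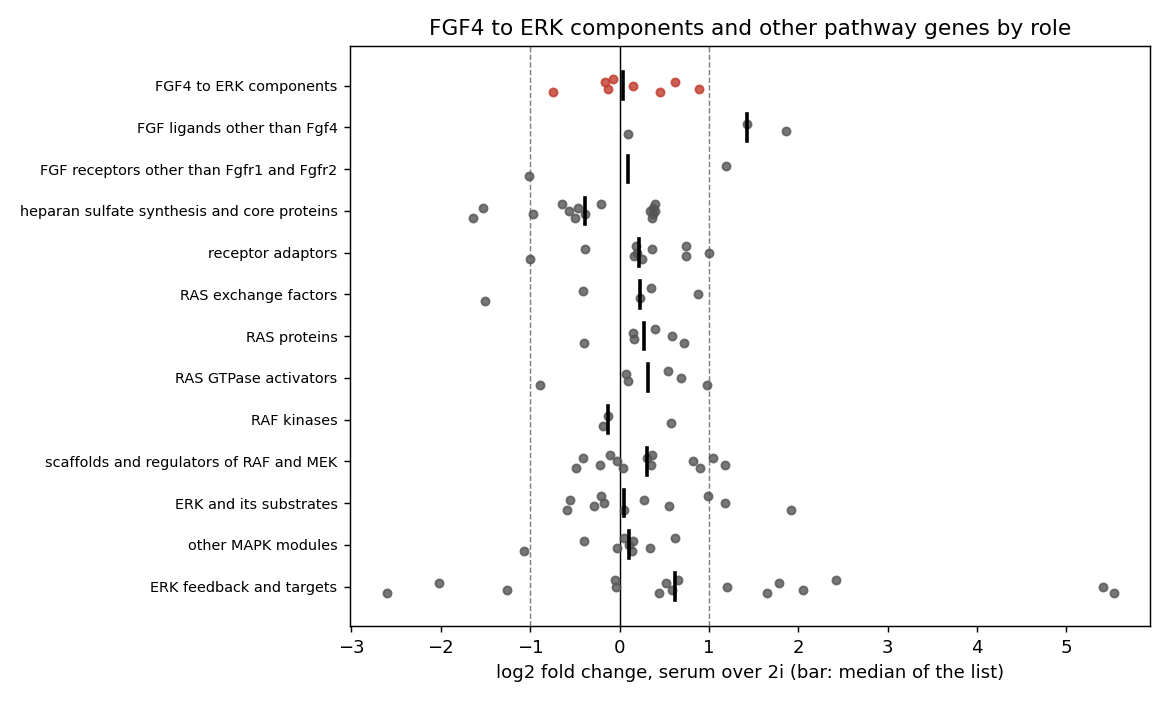
Log2 fold change, serum over 2i, of each tested gene by role, with the FGF4 to ERK components in red, a bar at the median of each list and dashed lines at a 2-fold change. The 8 components lie between the dashed lines, and the list of ERK feedback and target genes reaches from -2.61 to 5.53.

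The kinases of the other MAPK modules, which signal to p38, JNK and ERK5, also gave 0 of 9 calls. Their median was 0.11, with Mapk14 (p38 alpha) highest at 0.62 (SE 0.45) and Map2k6 lowest at -1.07 (SE 0.54). Downstream of ERK, the list of feedback inhibitors and targets had 0 of 16 tested genes called, 6 higher and 1 lower in serum ESCs at an unadjusted p-value under 0.05 beside 2.97% and 3% of all genes, and a median of 0.62. This count of calls depended on the test. With the replicate number as a block, 3 genes were called higher (Spry4, Etv4 and Myc) and 1 lower (Fos), where 0.338% of all genes were called higher and 1.22% lower. With DESeq2 2 were called higher (Spry4 and Myc) and 1 lower (Fos), where 0.561% and 1.37% of all genes were called. These 4 genes were named after their values were seen. Spry4 had 536 and 3973 normalized counts in the serum libraries, against 59.2 and 15.5 in the 2i libraries. Etv4 had 1915 and 1897, against 729 and 290. Myc had 131 and 657, against 7.27 and 4.85, and Fos had 85.0 and 104, against 292 and 1145. The median log2 fold change of the 8 components was 0.04, beside the 0.62 of this list, and the difference between these lists was not tested.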

How the data were processed

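RNA of late G1-phase mouse ESCs was sequenced by the authors in 2 serum and 2 2i libraries. They depleted ribosomal RNA and aligned the reads to mm9 with Bowtie. MMSeq, which splits reads matching more than 1 transcript, gave the gene estimates, and genes under 50 reads in both conditions were dropped. The deposited unit is a signal (normalized counts): each library was divided by its own size factor. 0 columns of other samples were left out.

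Within a tolerance of 0.01 reads, 100% of values came out as whole reads in each library. In serum replicate 1 the step is so near 1 that this rests on a measurement made here. Count tests on these reads (edgeR 4.0.16, DESeq2 1.42.0) served as alternatives only. Estimates that split reads need not be whole, so the whole reads may be rounded estimates, which was not tested. The Poisson intervals take them as counted reads.

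The test was restricted to genes whose mean reached 50 normalized counts in serum or 2i, and was run with limma 3.58.1 (R 4.3.3) on log2(normalized count + 1), which understates changes of low genes, with a variance trend and no replicate term. Calls needed a 2-fold change and an adjusted p-value under 0.05. A permutation test of 2 libraries against 2 cannot go below p = 0.333 and was not run. Names, positions and 43-base words came from GENCODE vM1, which describes mm9 and held 14462 of 14533 genes. Members and lists were chosen with earlier results of these data known. The rule named every member, in each role the gene with the fold change furthest above and furthest below 0, called genes and the genes of the ratios, some of which are not reported here. Alternatives were pseudocounts of 0.5 and 5, no filter, a mean of at least 200, other scalings, a GC content and length correction (mgcv 1.9.3), no trend, a replicate block, leaving out each library, and mean transcript length. For the list of ERK feedback and target genes they were added after the data were seen.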

Additional observations from a re-analysis of the deposited data

How the results depend on the processing

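Under the 17 alternatives 0 of the 8 FGF4 to ERK components and 0 of the other pathway and MAPK genes listed by role were called. Of the ERK feedback and target genes, 3 were called higher and 1 lower in serum ESCs with the replicate block, and 2 higher and 1 lower with DESeq2, against 0 with every other alternative. Fgf4 kept its negative and Ptpn11 and Sos1 their positive fold change under all 17, and of 136 component values 12 changed sign. For Ptpn11 the smallest adjusted p-value was 0.324 (DESeq2). The count of genes called over the whole table, higher and lower in serum ESCs, was 44 and 159 with the replicate block and 73 and 178 with DESeq2, against 0 and 2. The lower count was 4 with a mean of at least 200, 1 with GC content and length correction, 1 with limma without trend, 0 with edgeR and 0 to 0 on leaving out a library. The cause was not tested. The median of the components went from -0.23 without 2i replicate 2 to 0.69 without 2i replicate 1. It was -0.086 with upper quartile scaling, where the median of all genes was -0.12, and 0.23 with GC content and length correction, where it was 0.095. It was also below 0 with edgeR (-0.082) and DESeq2 (-0.070). Values that changed sign with GC content and length correction were Fgfr1 (0.063), Map2k1 (0.10), Map2k2 (0.23) and Rras (0.12), and Mapk3 was -0.063 with edgeR and -0.050 with DESeq2. On leaving out each library, where a lone library is assumed to vary like the other group, Fgfr1 went from -0.82 to 0.49, Grb2 from -0.47 to 1.38, Map2k1 from -0.18 to 0.043, Map2k2 from -0.71 to 0.46 and Mapk3 from -0.60 to 0.91.

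Of the 30 other named genes, 4 changed sign on leaving out a library. Rasgrp1 went from -3.06 to 0.052 (the latter without serum replicate 2), Rras from -1.09 to 0.29, Braf from -0.31 to 1.47 and Hras from -0.31 to 0.61. For Braf the sign turned without 2i replicate 2, for Hras and Rras on leaving out serum replicate 2 or 2i replicate 1. The labels number the replicates alike in both conditions, and the replicate differences correlated with r = 0.480 across genes, which are not independent. For 4 of the 8 components the differences had the same sign in serum and 2i. From 2 pairs it cannot be said that shared numbers mean shared origin. With the replicate block the components still gave 0 calls.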
